A study of Mus musculus with 8 samples.

Results

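The interferon response and antigen presentation module is a set of 39 mouse genes chosen by name, of 50902 genes with an entry of their own in the expression table. Its members are nucleic acid sensors, transcription factors of the response, ISG15 and its regulators, antiviral effectors, other interferon-stimulated genes, the subunits of the immunoproteasome, and genes of MHC class I loading and presentation. Their mRNA was measured by poly(A) RNA-seq in E14 mouse embryonic stem cells (ESCs) kept in N2B27 medium with LIF and 2i, with 4 libraries each of ESC + F/H-BAZ2ArWT and ESC + F/H-BAZ2ArΔTAM, called the WT line and the ΔTAM line below. BAZ2A is a chromatin protein whose TAM domain binds RNA, and the ΔTAM line expresses a form without that domain. In both lines a Flag and HA tagged Baz2a transgene that the siRNA does not target had been inserted with PiggyBac transposase. Both lines were transfected with siRNA against the endogenous Baz2a and collected 3 days later. The lines were single-cell clones picked for transgene expression close to that of the endogenous protein, so an effect of the missing domain and a difference between clones cannot be told apart. No untransfected or interferon-treated cells are compared here. The comparison asks which genes of the response differ in ESCs when BAZ2A lacks its TAM domain.

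Cells sense viral nucleic acid through proteins such as MDA5, RIG-I and ZBP1, which leads to the secretion of interferons. Interferons bind their receptors and act through JAK kinases and STAT and IRF transcription factors, which bind an interferon-stimulated response element (ISRE) or a gamma-activated site (GAS) in the promoters of interferon-stimulated genes. These genes encode proteins that block viral replication and the machinery that loads peptides on MHC class I molecules. Pluripotent cells are known to respond weakly to interferon and to carry little MHC class I, while keeping some of these genes on without interferon.

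The binding elements of the response were looked for in the members' promoters, from 250 bases before to 50 bases after each start site, in RefSeq sequences of GRCm38.p6. Promoters were given for 32 of the 39 members, in 38 windows. *Zbp1*, *Usp18*, *Mx1*, *Mx2*, *Ifi27*, *Parp9* and *Parp14* had no entry. The core of the ISRE was searched as GAAANNGAAA, where N is any base, on both strands. It was found in 13 of the 32 members (40.6%), against 3.99% of 27025 genes and 3.44% of 32851 windows. The GAS was searched as TTCNNNGAA, which is its own reverse complement. It was found in 9 of the 32 members (28.1%), against 9.55% of genes and 8.3% of windows. The sequences below are those of members whose levels are described further on, with the matching letters in capitals, each 5′ to 3′ on the strand of the gene. They are shown because members with closely similar elements differed in opposite directions, or were not detected.
*Isg15* ISRE cores, 3 that overlap, chr4:156200871-156200900, minus strand: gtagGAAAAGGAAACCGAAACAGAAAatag
*Oas1a* ISRE cores, 2 that overlap, chr5:120907523-120907552, minus strand: ttctcggGAAATGGAAACTGAAAatctact
*Ifih1* ISRE core, chr2:62646206-62646231, minus strand: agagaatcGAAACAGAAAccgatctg
*Ifitm3* ISRE core, 1 of 2, chr7:141010725-141010750, minus strand: aaattcagGAAAAGGAAActtctgag
*Ifitm2* ISRE core, chr7:140955990-140956015, minus strand: accaacagGAAAAGGAAAttgctaga
*Bst2* ISRE cores, 2 that overlap, chr8:71537580-71537609, minus strand: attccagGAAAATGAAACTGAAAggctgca
*B2m* ISRE core, chr2:122147540-122147565, plus strand: aagaacatGAAACTGAAAatgggaaa
*Ddx58* ISRE core, chr4:40239806-40239831, minus strand: tgaggcagTTTCGATTTCctatggcc
*Ifit3* ISRE core, 1 of 2, chr19:34583365-34583390, plus strand: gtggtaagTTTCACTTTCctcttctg
*Irf1* GAS, chr11:53769916-53769940, plus strand: agcctgatTTCCCCGAAatgatgag
A match is a stretch of letters and not a measured binding site. Positions of genes below are those of the table, in mm10.

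The authors deposited RPKM values, which here are per kilobase of genomic span from the start to the end of a gene. Multiplied by that span they came in whole steps, each worth 1 read. The reads on genes recovered in this way were 14.8% to 15.0% of the library totals that the steps imply, and what the authors' totals count beyond them is not stated. The WT libraries held 7255618 to 7686802 reads on genes and the ΔTAM libraries 6560881 to 8662855. The 39 members took 0.102% to 0.109% of these reads in the WT libraries and 0.111% to 0.115% in the ΔTAM libraries. Baz2a itself, endogenous and transgenic together, had 9.95 to 11.2 RPKM in the WT line and 17.0 to 18.9 RPKM in the ΔTAM line, so the lines also differed in its mRNA. Between libraries of a line the squared differences of recovered reads averaged 1.34 to 3.02 times the sampling variance (chi-square per gene, 12 pairs). Between lines they averaged 8.7 to 11.4 times that variance (16 pairs). Whether the 4 libraries of a line came from separate cultures is not stated, so the p-values below measure the spread between libraries, which may be technical.

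Both of the fits used below ran limma over all genes past a minimum. The RPKM fit took log2(RPKM + 0.1) where the mean over the libraries reached 0.1 RPKM, and tested 20 of the members. The read fit took recovered reads through voom where their mean reached 10, and tested 27 of the members. The remaining 12 had fewer reads. A fold change in the RPKM fit is smaller than the ratio of levels for genes near the pseudocount, and for these the read fit is closer to the ratio. In the RPKM fit, 8 members were higher in the ΔTAM line, 4 were lower and 8 did not pass an adjusted p of 0.05 (limma, Benjamini-Hochberg), where 35.8% of all 8998 genes tested passed, 19.9% higher and 15.9% lower. In the read fit, 14 were higher, 5 lower and 8 did not pass, where 43.9% of 12657 genes passed, 21.9% higher and 21.9% lower. The median log2 fold change of the tested members was 0.10 in the RPKM fit and 0.17 in the read fit, beside 0.011 and -0.0026 for all genes tested. Some members reached a minimum only through the ΔTAM line, where they are higher, and had to differ to be tested: *Ifi35* and *Parp9* in the RPKM fit, and *Zbp1*, *Oasl2* and *Ifi27* in the read fit. Without them 6 of 18 members were higher and 4 lower in the RPKM fit (median log2 fold change 0.082), and 11 of 24 higher and 5 lower in the read fit (median 0.13). The study's thresholds were an absolute log2 fold change of 0.58 and a p of 0.05, with no adjustment stated. The unadjusted p was taken here. Past these thresholds were 3 members in the RPKM fit (2 higher and 1 lower), where 3.79% of all genes passed, 2.32% higher and 1.47% lower. In the read fit they were 11 (9 higher and 2 lower), where 11.8% passed, 5.18% higher and 6.63% lower. The 9 include *Zbp1*, *Oasl2* and *Ifi27*, which had to differ to be tested. Groups that did not overlap were found for 12 of the members of the RPKM fit and 17 of the read fit, where 37.2% and 37.8% of all genes did not overlap. The 12 include *Ifi35* and *Parp9*, and the 17 include *Zbp1* and *Oasl2*, which had to differ to be tested. The members did not move in a single direction: the sensors, effectors and presentation genes each held members that rose and members that fell or did not pass.

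**Figure D1:**
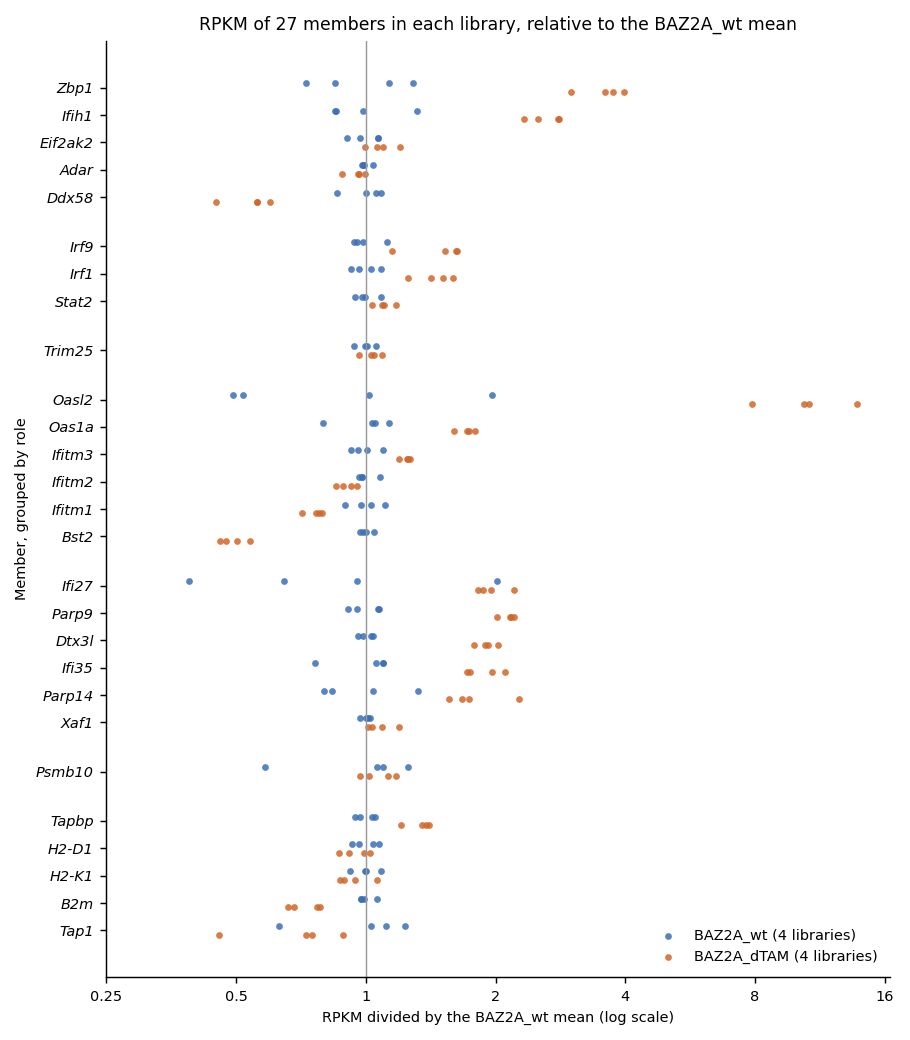
RPKM of the 27 members tested in the read fit, in each of the 8 libraries, divided by the mean of the 4 WT libraries of that member, on a log scale, with members grouped by role. The 4 ΔTAM libraries of *Oasl2*, *Zbp1*, *Ifih1*, *Parp9* and *Dtx3l* lie to the right of all WT libraries, and those of *Bst2*, *Ddx58* and *B2m* to the left.

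The sensors differed in opposite directions. *Ifih1* (chr2:62595798-62646255, minus strand), which encodes the cytosolic sensor of long double-stranded RNA MDA5, rose, and *Ddx58* (chr4:40203773-40239828, minus strand), which encodes RIG-I, the sensor of RNA with a 5′ triphosphate, fell. *Ifih1* had 45, 62, 38 and 40 reads in the WT libraries 1 to 4 and 116, 113, 123 and 124 in the ΔTAM libraries 1 to 4. Every ΔTAM library was above every WT library. Its level was 0.0182 ± 0.00399 RPKM (SD, n = 4) in the WT line and 0.0475 ± 0.00426 RPKM (SD, n = 4) in the ΔTAM line, a ratio of 2.62, with a log2 fold change of 1.38 (SE, standard error of the fit, 0.14, adjusted p = 7.63e-08 in limma's read fit). *Ddx58* had 116, 114, 117 and 98 reads in the WT line and 45, 58, 66 and 72 in the ΔTAM line, again without overlap. The ratio of its RPKM means was 0.542 and its log2 fold change -0.87 (SE 0.13, adjusted p = 7.78e-06 in limma's read fit). Both genes were under the RPKM filter. *Zbp1* (chr2:173206612-173218923, minus strand), whose product binds left-handed nucleic acid and can start cell death, had 9, 7, 10 and 6 reads in the WT line and 26, 21, 32 and 37 in the ΔTAM line. The counts did not overlap, and mean RPKM was 3.59-fold higher, with a log2 fold change of 1.83 (SE 0.26, adjusted p = 6.86e-06 in limma's read fit, which *Zbp1* entered only through the ΔTAM line). The other 2 genes of the group were present at higher levels and did not pass in either fit. *Eif2ak2* encodes PKR, a kinase that stops translation when it binds double-stranded RNA, and had 271 to 331 reads in the WT line and 280 to 420 in the ΔTAM line (log2 fold change 0.12, 95% interval -0.028 to 0.28, adjusted p = 0.179 in limma's read fit). *Adar*, which encodes the enzyme that converts adenosine to inosine in double-stranded RNA, had 617 to 688 and 513 to 720 reads (log2 fold change -0.069, 95% interval -0.17 to 0.034, adjusted p = 0.274 in limma's read fit).

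Of the 4 transcription factors, *Irf1* and *Irf9* rose in both fits. *Irf1* (chr11:53770014-53778374, plus strand), a factor induced by interferon gamma that binds the ISRE, had 0.979, 0.871, 0.926 and 0.832 RPKM in the WT line and 1.13, 1.36, 1.44 and 1.28 RPKM in the ΔTAM line. All ΔTAM values were above the highest WT value, and the log2 fold change was 0.48 (SE 0.076, adjusted p = 0.00236 in limma's RPKM fit). *Irf9* (chr14:55603571-55610030, plus strand), the DNA-binding subunit of the ISGF3 complex, had 0.355, 0.349, 0.366 and 0.417 RPKM in the WT line and 0.428, 0.569, 0.601 and 0.605 RPKM in the ΔTAM line. The groups did not overlap, but the lowest ΔTAM library lay close to the highest WT library. The log2 fold change of *Irf9* was 0.46 (SE 0.099, adjusted p = 0.00923 in limma's RPKM fit). Exons of *Irf9* share 123 bases with *Rnf31*, a gene on the same strand. *Stat2*, another subunit of ISGF3, had 0.497 to 0.569 RPKM in the WT line and 0.545 to 0.617 RPKM in the ΔTAM line. These ranges overlapped, and its log2 fold change of 0.12 had an adjusted p of 0.0838 in limma's RPKM fit and 0.0374 in limma's read fit. The call of *Stat2* turned on single libraries: it passed in limma's RPKM fit without WT replicate 1 (adjusted p = 0.0366) and was lost in limma's read fit without WT replicate 2, 3 or 4 or ΔTAM replicate 1, 3 or 4 (adjusted p from 0.0531 to 0.142). *Irf7*, the factor that amplifies interferon production, had 0, 3, 4 and 6 reads in the WT line and 2, 0, 0 and 1 in the ΔTAM line (exact two-sided permutation p = 0.171), too few to compare.

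*Isg15* (chr4:156199424-156200818, minus strand) encodes a ubiquitin-like protein that is joined to other proteins during the response. It had 2, 1, 1 and 2 reads in the WT line and 5, 9, 6 and 7 reads in the ΔTAM line. The counts did not overlap, and the ratio of the summed reads, 27 over 6 after scaling for depth, was 4.53, with an exact 95% interval of 1.83 to 13.4 that covers counting error only. An exact two-sided permutation test over the libraries gave p = 0.0286, the smallest that 4 against 4 allows. At this level *Isg15* was under the minimum of both fits. *Usp18*, whose product removes ISG15 and blocks the interferon receptor, had 1 read in all 8 libraries together. *Trim25*, the ubiquitin ligase that acts on RIG-I, was by contrast at 1.57 to 1.76 RPKM in the WT line and 1.61 to 1.82 RPKM in the ΔTAM line, with a log2 fold change of 0.042 (95% interval -0.063 to 0.15, adjusted p = 0.507 in limma's RPKM fit).

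The antiviral effectors held the members with the highest levels, the largest rise in the read fit and the largest fall in both fits. *Oasl2* (chr5:114896936-114912234, plus strand), a relative of the oligoadenylate synthetases, had 2, 1, 1 and 4 reads in the WT line and 19, 18, 29 and 18 reads in the ΔTAM line. The counts did not overlap, and mean RPKM was about 10.7-fold higher, from 8 reads in the WT line in sum. The gene entered limma's read fit only through the ΔTAM line, with a log2 fold change of 3.24 (SE 0.35, 95% interval 2.52 to 3.97, adjusted p = 1.28e-07). *Oas1a* (chr5:120896256-120907521, minus strand), which encodes an oligoadenylate synthetase that activates RNase L, had 0.259, 0.279, 0.255 and 0.196 RPKM in the WT line and 0.442, 0.395, 0.428 and 0.425 RPKM in the ΔTAM line. Its groups did not overlap, and its log2 fold change was 0.59 (SE 0.076, adjusted p = 0.000898) in limma's RPKM fit and 0.79 (adjusted p = 4.88e-07) in limma's read fit. *Oas1a* belongs to a family of close copies, so reads may be split between them. *Bst2* (chr8:71534255-71537456, minus strand) encodes tetherin, which holds budding virus particles on the cell surface. It had 1.41, 1.35, 1.31 and 1.33 RPKM in the WT line and 0.677, 0.62, 0.727 and 0.64 RPKM in the ΔTAM line. Mean levels were 1.35 ± 0.0423 and 0.666 ± 0.0468 RPKM (n = 4 libraries each, with the SD), a ratio of 0.494 with a log2 fold change of -0.92 (SE 0.047, adjusted p = 2.15e-05 in limma's RPKM fit). *Bst2* and *Oas1a* both hold a pair of overlapping ISRE cores, printed above, and moved in opposite directions.

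The interferon-induced transmembrane proteins, which keep viruses from entering the cytosol, are encoded by *Ifitm1*, *Ifitm2* and *Ifitm3* within 55.9 kb of chromosome 7. They are described together because of their levels, a choice made after these were seen. *Ifitm3* had 15.9, 14.6, 13.9 and 13.4 RPKM in the WT line and 18.4, 18.2, 18.1 and 17.3 RPKM in the ΔTAM line. It rose, with a log2 fold change of 0.32 (SE 0.053, adjusted p = 0.00292 in limma's RPKM fit) and no overlap. *Ifitm1* had 6.53, 6.03, 5.72 and 5.25 RPKM in the WT line and 4.64, 4.51, 4.57 and 4.17 RPKM in the ΔTAM line. It fell, with a log2 fold change of -0.39 (SE 0.067, adjusted p = 0.0036 in limma's RPKM fit), also without overlap. *Ifitm2* had 9.17, 8.32, 8.34 and 8.21 RPKM in the WT line and 7.54, 8.12, 7.85 and 7.25 RPKM in the ΔTAM line. Its fall was small, with a log2 fold change of -0.14 (SE 0.048, adjusted p = 0.0484 in limma's RPKM fit), and this call was lost, at adjusted p from 0.0539 to 0.113 in limma, when any library other than ΔTAM replicate 2 was left out. The 3 genes are similar in sequence, and how reads that map to several places were treated is not stated. The other 6 effectors were at or near 0. *Ifit3* and *Mx2* had no read in any library, which allows up to 3 reads in each, and *Ifit1*, *Ifit2*, *Rsad2* and *Mx1* had at most 8 reads in any library, with exact permutation p-values from 0.286 to 1.0.

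**Figure D2:**
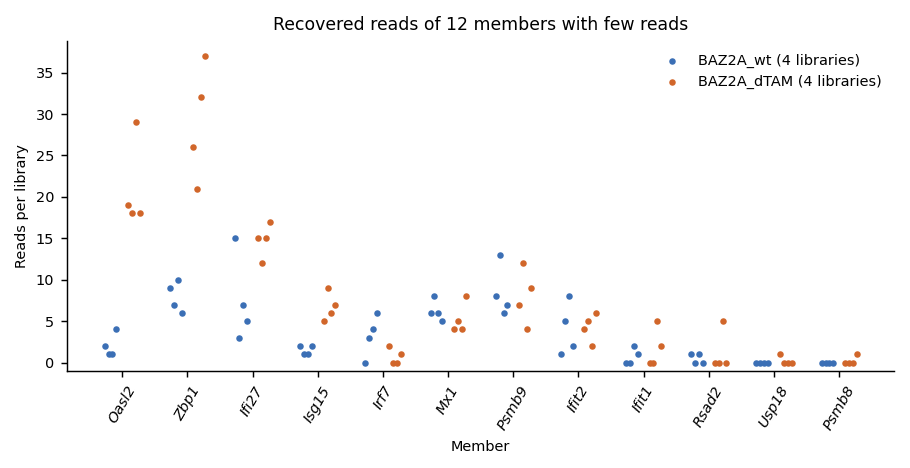
Recovered reads in each of the 8 libraries for 12 members with few reads, on a linear axis, with the WT libraries to the left of the ΔTAM libraries of each gene. *Oasl2*, *Zbp1* and *Isg15* show no overlap between the lines, and *Irf7*, *Mx1*, *Psmb9*, *Ifit2*, *Ifit1*, *Rsad2*, *Usp18* and *Psmb8* overlap at 13 reads or fewer.

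Of the other interferon-stimulated genes, 3 of 4 tested in the RPKM fit rose, and 5 of 6 in the read fit, where 19.9% and 21.9% of all genes were higher. *Ifi35* and *Parp9* in the RPKM fit and *Ifi27* in the read fit entered only through the ΔTAM line. Without them 1 of 2 and 4 of 5 rose. *Dtx3l* and *Parp9* encode a ubiquitin ligase and the ADP-ribosyltransferase it pairs with, and *Parp14* encodes a further ADP-ribosyltransferase. The 3 genes lie within 140.0 kb of chromosome 16, and all rose. *Dtx3l* (chr16:35926511-35939151, minus strand) had 0.236, 0.221, 0.226 and 0.239 RPKM in the WT line and 0.41, 0.466, 0.435 and 0.441 RPKM in the ΔTAM line. Its ratio was 1.9 and its log2 fold change 0.70 (SE 0.038, adjusted p = 2.8e-05 in limma's RPKM fit). *Parp9* (chr16:35938470-35972605, plus strand) had 0.0695, 0.0694, 0.0589 and 0.0619 RPKM in the WT line and 0.141, 0.131, 0.14 and 0.143 RPKM in the ΔTAM line. It rose 2.14-fold, with a log2 fold change of 0.53 (SE 0.043, adjusted p = 0.000117) in limma's RPKM fit and 1.10 (adjusted p = 1.21e-09) in limma's read fit, where both lines are over the minimum, as they are not in the RPKM fit. The 2 genes start head to head and share 458 bases of exon on opposite strands, and whether reads were counted by strand is not stated. *Parp14* (chr16:35832874-35871544, minus strand) had 17, 22, 16 and 28 reads in the WT line and 31, 28, 38 and 54 reads in the ΔTAM line, which touched at 28 reads and did not overlap in RPKM. Its log2 fold change was 0.87 (SE 0.21, adjusted p = 0.00219 in limma's read fit). *Ifi35* (chr11:101448407-101458698, plus strand), whose product partners with NMI, had 0.0723, 0.1, 0.104 and 0.104 RPKM in the WT line and 0.163, 0.2, 0.186 and 0.166 RPKM in the ΔTAM line, with a log2 fold change of 0.91 (SE 0.14, adjusted p = 1.88e-05) in limma's read fit, where both lines are over the minimum, and 0.52 (adjusted p = 0.00127) in limma's RPKM fit, where the WT line is under it. *Ifi27* (chr12:103434211-103440239, plus strand) had 15, 3, 7 and 5 reads in the WT line and 15, 12, 15 and 17 reads in the ΔTAM line. WT replicate 1 of *Ifi27* lay among the ΔTAM libraries, and the log2 fold change was 1.16 (SE 0.35, adjusted p = 0.0104 in limma's read fit, entered only through the ΔTAM line). The *Ifi27* adjusted p was 0.0653, with a log2 fold change of 0.82, without WT replicate 2. *Xaf1*, which encodes a factor that promotes cell death, was at 0.281 to 0.296 RPKM and 0.293 to 0.347 RPKM (adjusted p = 0.174 in limma's RPKM fit), and *Ifi44* had no read.

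The immunoproteasome, a form of the proteasome induced by interferon gamma, was low in both lines. *Psmb8* had 1 read in all libraries together, and *Psmb9* had 8, 13, 6 and 7 reads in the WT line and 7, 12, 4 and 9 in the ΔTAM line. *Psmb10* was the best detected, with 33 to 67 reads in the WT line and 48 to 75 in the ΔTAM line, and it did not pass (log2 fold change 0.11, 95% interval -0.29 to 0.52, adjusted p = 0.649 in limma's RPKM fit). Its lowest value was WT replicate 4, without which the sign of the change reversed. In exon RPKM, which is recovered reads per kilobase of exon relative to the reads on genes, *Psmb10* had 4.32 ± 1.25 and *Psmb9* 0.308 ± 0.106 in the WT line (SD, n = 4). The standard subunits that they replace, *Psmb5*, *Psmb6* and *Psmb7*, were at 106.0, 118.0 and 33.9 on the same scale over all libraries. Among the standard subunits *Psmb6* and *Psmb5* rose, by log2 fold changes of 0.17 (adjusted p = 0.0153) and 0.14 (adjusted p = 0.0282) in limma's RPKM fit.

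Among the genes of MHC class I loading and presentation, the heavy chains *H2-K1* and *H2-D1* did not pass, the shared light chain fell and tapasin rose. *B2m* (chr2:122147686-122153083, plus strand) encodes beta-2 microglobulin, the light chain of every class I molecule. It had 0.928, 0.943, 0.924 and 1.01 RPKM in the WT line and 0.73, 0.626, 0.744 and 0.648 RPKM in the ΔTAM line. All ΔTAM libraries were below all WT libraries, with means of 0.95 ± 0.0377 and 0.687 ± 0.0587 RPKM (SD, n = 4 each). The gene fell, with a log2 fold change of -0.42 (SE 0.056, adjusted p = 0.00111 in limma's RPKM fit). *B2m* lies on the opposite strand inside the span of *Patl2*, with no shared exon base. *Patl2* also fell, from 333 to 366 reads in the WT libraries to 140 to 181 in the ΔTAM libraries, and the part of its reads in the *B2m* value was not tested. *H2-K1*, a classical heavy chain, had 0.648, 0.765, 0.704 and 0.709 RPKM in the WT line and 0.615, 0.629, 0.752 and 0.666 RPKM in the ΔTAM line (log2 fold change -0.076, 95% interval -0.23 to 0.076, adjusted p = 0.404 in limma's RPKM fit). *H2-D1*, another heavy chain, had 0.354 to 0.409 RPKM and 0.33 to 0.39 RPKM (log2 fold change -0.060, 95% interval -0.19 to 0.066, adjusted p = 0.429 in limma's RPKM fit). The class I genes are highly similar to each other, so their reads may be shared. *Tapbp* (chr17:33915899-33929288, plus strand) encodes tapasin, which holds class I molecules at the peptide transporter. It had 0.294, 0.303, 0.328 and 0.323 RPKM in the WT line and 0.438, 0.43, 0.377 and 0.421 RPKM in the ΔTAM line, with a log2 fold change of 0.32 (SE 0.047, adjusted p = 0.00152 in limma's RPKM fit). *Tapbp* shares 149 bases of exon with *Zbtb22* on the same strand. *Tap1*, a subunit of the peptide transporter, had 41, 26, 48 and 46 reads in the WT line and 32, 16, 31 and 35 in the ΔTAM line. These ranges overlapped and the log2 fold change of -0.47 (95% interval -0.95 to 0.00090) had an adjusted p of 0.099 in limma's read fit. That of *Tap1* was 0.0123 without WT replicate 2, with a log2 fold change of -0.69.

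**Figure D3:**
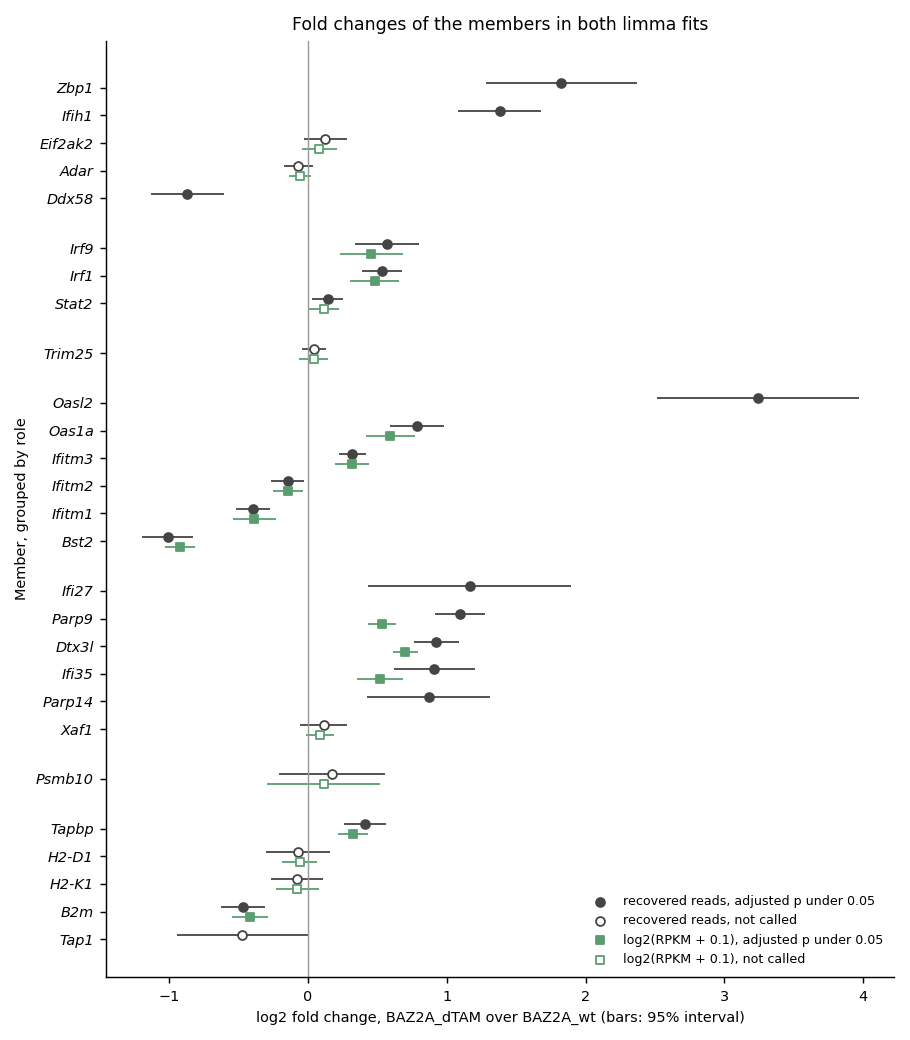
The log2 fold change of each of the 27 members in the ΔTAM line over the WT line with its 95% interval, in limma's read fit (circles) and, for 20 of them, limma's RPKM fit (squares), filled where the adjusted p was under 0.05. The changes run from -1.01 for *Bst2* to 3.24 for *Oasl2* in the read fit, and no member changes sign between the fits.

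Levels between members were compared in exon RPKM, which takes their length into account. *Ifitm3* was the highest in the WT line, at 170.0 ± 12.6, followed by *Ifitm2* at 100.0 ± 5.16 and *Ifitm1* at 94.1 ± 8.48, whose ranges overlapped. *Trim25* at 40.8 ± 1.9 and *B2m* at 40.1 ± 1.7 also overlapped, and *Bst2* followed at 32.1 ± 1.0 (SD, n = 4 each). In the ΔTAM line *Bst2* was at 15.8 ± 1.11, with a mean below those of *Irf1* at 18.3 ± 1.78 and *Oas1a* at 16.9 ± 0.852, but the ranges of the 3 genes overlapped. In the WT line *Irf1* and *Oas1a* had been at 12.7 ± 0.892 and 9.93 ± 1.41. Among genes whose mean reached 10 reads, *Ifitm3* lay at the 98.7th percentile of level over all libraries, *B2m* at 87.8, *H2-K1* at 49.7 and *Ifih1* at 15.9. The members with the largest rises were low in both lines, with *Oasl2* at 0.0416 ± 0.0288 in the WT line and 0.443 ± 0.1 in the ΔTAM line. In bulk RNA, more RNA in each cell and more cells with the RNA cannot be told apart.

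**Figure D4:**
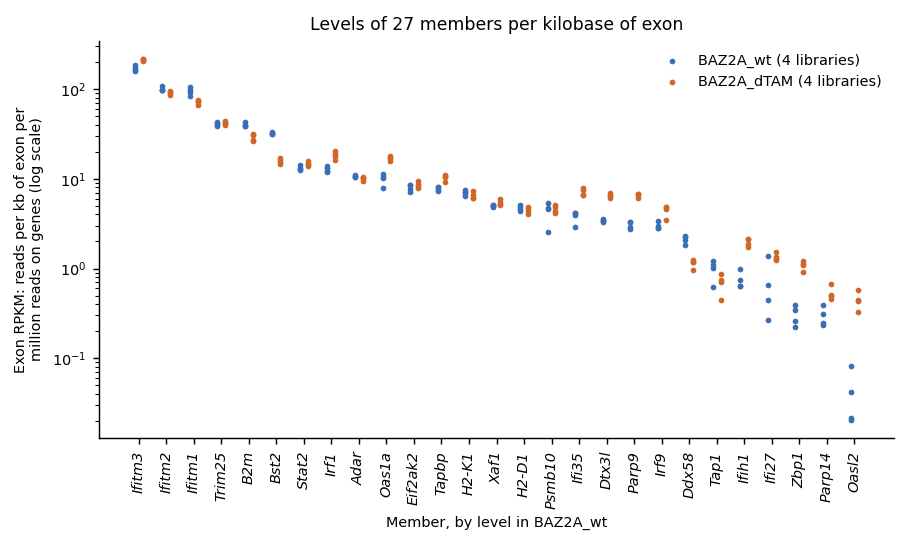
Level of 27 members in each library, in exon RPKM on a log scale, ordered by the mean of the WT line. The *Ifitm* genes are near or above 100.0 in the WT line, and *Oasl2*, the lowest, is below 1 in every library.

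The ISRE core did not go with one direction of change. Of the 13 members with a core, 9 were tested in the read fit, of which 4 rose (*Ifih1*, *Oas1a*, *Ifitm3* and *Stat2*), 4 fell (*Ddx58*, *Bst2*, *Ifitm2* and *B2m*) and *Eif2ak2* did not pass, where 21.9% of all genes were higher and 21.9% lower. The calls of *Stat2* and *Ifitm2* were lost in 6 and 4 of the 8 read fits that left out a library. Of the 19 members in the promoter table without a core, 14 were tested, of which 6 rose, 1 fell and 7 did not pass. The 6 include *Oasl2*, which entered the read fit only through the ΔTAM line. Of the 7 tested members with a GAS, 4 rose, 1 fell and 2 did not pass. *Isg15*, *Ifit1*, *Ifit3* and *Rsad2* hold cores and had too few reads for the fit.

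The genes around the members were taken from lists of the pathway. The ligands *Ifnb1*, *Ifna4*, *Ifng* and *Ifnl3* had no read in any library. Of 18 genes of interferons, receptors and JAK-STAT signalling, 7 were tested in the RPKM fit, of which 1 rose and 2 fell, where 19.9% of all genes were higher and 15.9% lower. In the read fit 14 were tested, of which 3 rose and 3 fell, where 21.9% of all genes were higher and 21.9% lower. The largest of these changes were those of *Il10rb*, a receptor subunit (log2 fold change -1.38, adjusted p = 0.000403), and the kinase *Jak2* (0.69, adjusted p = 4.68e-06 in limma's read fit), both under the RPKM filter and named after their values were seen. *Socs3*, an inhibitor of cytokine signalling, fell (log2 fold change -0.32, adjusted p = 0.00158), as did the kinase *Tyk2* (-0.17, adjusted p = 0.00178), while the receptor subunit *Ifnar1* rose (0.17, adjusted p = 0.0446 in limma's RPKM fit). Of 20 genes of sensing and induction, 8 were tested in the RPKM fit and 4 rose, with none lower. In the read fit 16 were tested, of which 5 rose and 1 fell. The one that fell was *Irf8*, a factor of the interferon regulatory family (log2 fold change -1.08, adjusted p = 0.00451), and its relative *Irf5* rose (1.30, adjusted p = 0.00108 in limma's read fit), both under the RPKM filter and again named after their values were seen. Each entered the read fit only through the line where it is higher, and without them 4 of 14 rose. Of *Irf5* the WT libraries had 7, 8, 14 and 5 reads, and of *Irf8* the ΔTAM libraries had 7, 11, 9 and 7. The 4 that rose in the RPKM fit include the adaptors *Ticam1* (log2 fold change 0.58, adjusted p = 0.00019) and *Tmem173*, which encodes STING (0.50, adjusted p = 0.0021), and the ligase *Traf6* (0.37, adjusted p = 0.000774 in limma's RPKM fit).

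Of 30 further interferon-stimulated genes, 16 had a mean under 10 reads and 3 had none in any library. In the RPKM fit 7 were tested, of which 4 rose and 1 fell, where 19.9% of all genes were higher and 15.9% lower. In the read fit 14 were tested, of which 8 rose and 3 fell, where 21.9% of all genes were higher and 21.9% lower. Some of this list also appear in the study's own lists from these libraries, so it is not independent evidence of a direction. *Irgm1*, an immunity-related GTPase, had 36, 41, 42 and 23 reads in the WT line and 96, 124, 134 and 141 in the ΔTAM line (log2 fold change 1.83, adjusted p = 1.38e-08 in limma's read fit). *Oas1g*, a close copy of *Oas1a*, rose as well (0.99, adjusted p = 2.7e-06 in limma's read fit). Both reached the RPKM filter only through the ΔTAM line, with log2 fold changes of 1.04 and 0.51 there, and without them 2 of 5 genes rose in the RPKM fit. *Ifi30*, which encodes a lysosomal thiol reductase, fell from 265 to 306 reads to 128 to 170 reads (log2 fold change -0.83, SE 0.056, adjusted p = 6.21e-05 in limma's RPKM fit). Of 15 further genes of class I presentation, 9 were tested in the RPKM fit, of which 3 rose and 1 fell, and 14 in the read fit, of which 5 rose and 2 fell, beside the same shares of all genes. The largest changes in the read fit were those of *H2-Q7*, a nonclassical heavy chain (log2 fold change -0.76, adjusted p = 0.0489, entered only through the WT line), and *Erap1*, which trims peptides (0.55, adjusted p = 0.0161), while the heavy chain *H2-Q4* was higher by 0.29 (adjusted p = 0.0357 in limma's read fit). All 3 are named after their values were seen. The chaperone *Calr* had the largest called change in the RPKM fit (log2 fold change 0.34, adjusted p = 0.000563 in limma's RPKM fit). *Nlrc5*, the transactivator of class I genes, had at most 2 reads in a library.

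**Figure D5:**
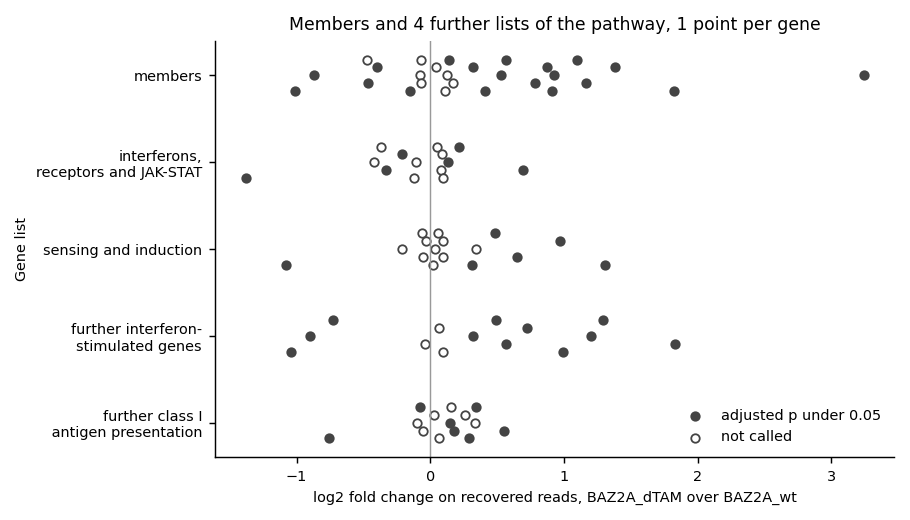
The log2 fold change in limma's read fit of each tested gene among the members and 4 further lists of the pathway, 1 point per gene, filled where the adjusted p was under 0.05. Every list has filled points on both sides of 0.

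The libraries were checked for other cells that express these genes. All 8 markers of ESC identity were detected, with 42905 to 56498 reads in sum per library, although *Sox2*, *Klf4*, *Esrrb* and *Dppa5a* were lower in the ΔTAM line (log2 fold changes from -0.42 to -0.20, adjusted p at most 0.00176 in limma's RPKM fit). Of 6 markers of immune cells, *Adgre1* had no read and *Ptprc*, which is carried by nearly all blood cells, had 1 read in 1 library. *Cd68* fell (log2 fold change -0.60, adjusted p = 0.00118) and *Cd3e* rose (0.59, adjusted p = 0.000364 in limma's RPKM fit, entered only through the ΔTAM line), and the sum of the list was 177 to 215 reads in the WT line and 155 to 237 in the ΔTAM line. The 6 fibroblast markers summed to 7 to 13 reads in the WT line and 11 to 20 in the ΔTAM line, with *Col3a1* and *Dcn* at 0. The 6 primitive endoderm markers summed to 47 to 55 and 59 to 73 reads, mostly from *Gata4*, and their part in the members' changes was not tested.

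Averaged over the 27 members, the log2 deviation of a library from its line's mean lay between -0.069 and 0.065 in the WT line and between -0.031 and 0.040 in the ΔTAM line, and deviations of single members in opposite directions cancel in this mean.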

How the data were processed

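RNA of 8 libraries was sequenced by the authors from stranded poly(A) libraries as single-end reads. Ribosomal reads were removed, reads were trimmed (Trimmomatic 0.36 in the submitters' processing notes) and mapped with STAR to mm10, and exon coverage per gene was deposited as RPKM for each library. Which annotation release was used, whether strand was, and how multi-mapping reads were handled is not given in the sources used here. The deposited RPKM values were per kilobase of genomic span, and 99.5% of those above 0 were within 0.02 of a whole number of reads. Of 51288 entries, 386 repeats of 231 symbols were set aside. The libraries were assigned to the lines by their titles.

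limma 3.58.1 (R 4.3.3; lmFit, eBayes with trend) was fitted to log2(RPKM + 0.1) of genes whose mean reached 0.1 RPKM, and, through voom with median-ratio scaling, to the recovered reads of genes whose mean reached 10 reads. Both used all 8 libraries, and Benjamini-Hochberg adjustment ran over all genes tested. The code was tested on simulated reads. Exon lengths came from GENCODE vM21. Reads carried no molecular identifiers, so intervals and limits from counts cover counting error only. Python 3.11.15 with scipy 1.17.1 was used for exact tests.

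The members and lists were chosen with earlier results of these data known. Values per library were given for members with an adjusted p under 0.05 and a log2 fold change of 0.58 or more in size in either fit and for the 2 largest changes among the calls of each role group in the RPKM fit. The 3 largest among the RPKM calls of each further list of the pathway were named with their fold changes. Alternatives were the pseudocount, the filter, the scaling, eBayes without trend or robust, a replicate block, each library left out, and all repeated entries kept. Further settings of the read fit were chosen after seeing the data. The values of 1 gene of the further lists are not reported here.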

Additional observations from a re-analysis of the deposited data

Results flagged for a closer look

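Among 54 groups of 4 libraries (27 members in each line), 2 had a library far from the other 3 by Dixon's test at its 95% critical value, and chance flags about 1 in 20 such groups. *Ifitm2* in WT replicate 1 was at 9.17 RPKM (524 reads), above the other WT libraries at 8.21 to 8.34 RPKM. *Ifi35* in WT replicate 1 was at 0.0723 RPKM (37 reads), below the other WT libraries at 0.1 to 0.104 RPKM.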

How the results depend on the processing

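With a filter of a mean of at least 1 RPKM, 988 genes passed (588 higher, 400 lower) instead of 3224 (1789 and 1435), and 5 members instead of 12, 2 of them higher instead of 8. With no filter 3757 genes (1940 higher) and 17 members (13 higher) passed. In the read fit 5551 genes (2773 higher, 2778 lower) and 19 members (14 higher) passed. Of the members, 3 passed the study's thresholds, 5 with a pseudocount of 0.01 RPKM, 0 with a pseudocount of 1 RPKM, 1 with a filter of a mean of at least 1 RPKM and 11 in the read fit, or 7 with a mean of at least 50 reads. For the 0, limma with a pseudocount of 1 RPKM still gave 12 members an adjusted p under 0.05. A stricter filter leaves fewer genes to test, and the cause of the other differences was not tested. Leaving out each library gave 2618 to 3049 genes and 10 to 12 members in the RPKM fit, and 4846 to 5437 genes and 16 to 19 members in the read fit.

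The sign of *Psmb10* reversed without WT replicate 4, to -0.070 in the RPKM fit and -0.067 in the read fit; without any other single library it reached at most 0.21 and 0.30. Of 342 recomputed fold changes in the RPKM fit and 318 in the read fit, 13 and 14 changed call or sign, for 3 and 5 members. *Ifitm2* lost its call in 10 of the RPKM settings, and *Stat2* gained one in 2. *Parp9* fell under the RPKM filter in 4 of the 8 fits without a library.

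Whether the replicate numbers pair the libraries was not settled. Deviations of same-numbered libraries correlated weakly, at 0.024 to 0.062, and those of differently numbered libraries at -0.0606 to 0.0275. With the replicate block 2796 genes and 12 members passed in the RPKM fit, *Stat2* in place of *Ifitm2*, and *Tap1* passed in the read fit (adjusted p = 0.0299 in limma).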
